A study of Mus musculus with 16 samples.

Results

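The genes described here encode the subunits of the mitochondrial respiratory chain and of ATP synthase. They were chosen by symbol, as every gene whose name begins with Nduf, Uqcr, Cox4 to Cox8 or Atp5, together with Sdha, Sdhb, Sdhc and Sdhd, and each probe was named through its RefSeq accession. Of the genes in RefSeq, 115 symbols matched, of which 96 are protein coding. A probe was found for 93 genes, and 92 passed the filter on dim probes, which asks that in some group all 4 arrays be well above background; 15518 genes in all passed it. These 92 genes comprise 36 subunits of complex I, 8 complex I assembly factors, 4 subunits of complex II, 8 of complex III, 19 of complex IV and 17 of complex V, and 90 of them were well above background on all 16 arrays. The other protein coding genes were Ndufb1, Ndufb4b and Ndufb4c, which had no named probe, and Cox8b, whose probe did not pass.

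RNA from 16 mouse pluripotent stem cell lines of strain 129/Ola, 4 in each of 4 groups, was hybridised to single-colour Agilent arrays. LIF_serum cells, labelled naive, came from pre-implantation embryos and were grown with LIF, a cytokine, and serum. EpiSC cells, labelled primed, came from the epiblast at E6.5 and were kept in Activin A and bFGF. The 2i_LIF and 2iSB_LIF cells, both labelled ground, came from pre-implantation embryos and were kept in 2i (inhibitors of the kinases MEK and GSK3) with LIF, the latter also with SB431542, an inhibitor of Activin, Nodal and TGF-beta receptors. Each array is 1 line. The descriptions code LIF_serum arrays 1 and 2 as LS and arrays 3 and 4 as LSFF, without saying what differs.

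Complex I takes electrons from NADH and complex II from succinate, and both pass them through coenzyme Q to complex III. Cytochrome c carries them on to complex IV (cytochrome c oxidase), which reduces oxygen, and complex V (ATP synthase) uses the proton gradient so built to make ATP. Most subunits are made in nearly every cell, but complex IV has alternative isoforms used in muscle, lung or testis. Naive mouse cells are known to respire more than primed cells, which depend more on glycolysis.

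The arrays lay on 2 slides, which bears on every value below. All EpiSC arrays lay on slide 2 with LIF_serum arrays 3 and 4, array 4 of 2i_LIF and array 3 of 2iSB_LIF, and the rest lay on slide 1. The 75th percentile of the processed signal lay between 645.8 and 1039 over all arrays, while its median lay between 57.06 and 79.21 on slide 1 and between 32.03 and 46.98 on slide 2. Levels are log2 signals from which the 75th percentile of the array was subtracted, or its median for comparison. Between these scalings the median difference of all 15518 genes moved from 0.07 to 0.61 for EpiSC minus LIF_serum, from 0.04 to 0.58 for EpiSC minus 2i_LIF and from 0.04 to 0.56 for EpiSC minus 2iSB_LIF, so changes of EpiSC are also given relative to that median. Markers were set beside the labels (adjusted p under 0.05, limma). Of 12 naive markers 11 were lower and of 10 primed markers 8 were higher in EpiSC than in LIF_serum. Of all genes 23.7% were lower and 29.6% higher. Under both scalings 9 naive markers were lower and 8 primed markers higher, beside 11.9% and 29.6%. In 2i_LIF 6 naive markers were higher than in LIF_serum, with 1 primed marker higher and 4 lower. In 2iSB_LIF 6 naive markers were higher, with 1 primed marker higher and 6 lower. Of all genes 14% were higher and 16.2% lower in 2i_LIF, and 15.7% and 18.1% in 2iSB_LIF. Fibroblast markers, 20 genes whose signals were divided by the array's 75th percentile and summed, ranged from 196 to 295 in EpiSC, 19.2 to 122 in LIF_serum, 4.27 to 5.76 in 2i_LIF and 4.1 to 6.25 in 2iSB_LIF. Their part in the results below was not tested, and in such bulk samples fewer cells of a type and less RNA per cell cannot be told apart.

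The clearest differences lay in the restricted isoforms, so the 250 bases upstream of the start of 3 of them and of a restricted cytochrome c and ADP/ATP carrier are shown first, with Cox7b, the broadly expressed partner of Cox7b2. The sequences come from RefSeq (GRCm38.p6) and read 5′ to 3′ on the gene's strand. Capitals mark matches, on either strand, to the E2F-type motif TCCCGC and the E-box CACGTG.
Cox7b2 (chr5:71548206-71548455, minus strand): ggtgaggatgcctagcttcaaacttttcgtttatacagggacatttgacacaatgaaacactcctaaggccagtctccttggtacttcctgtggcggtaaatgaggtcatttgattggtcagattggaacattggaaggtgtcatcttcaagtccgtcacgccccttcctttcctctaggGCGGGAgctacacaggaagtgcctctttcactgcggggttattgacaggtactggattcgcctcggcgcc
Cox7b (chrX:106015450-106015699, plus strand): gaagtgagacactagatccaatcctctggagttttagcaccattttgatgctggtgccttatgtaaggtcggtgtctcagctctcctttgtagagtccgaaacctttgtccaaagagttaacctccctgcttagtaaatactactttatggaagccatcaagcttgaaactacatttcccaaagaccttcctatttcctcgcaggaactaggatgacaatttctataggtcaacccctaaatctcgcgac
Cox6b2 (chr7:4753095-4753344, minus strand): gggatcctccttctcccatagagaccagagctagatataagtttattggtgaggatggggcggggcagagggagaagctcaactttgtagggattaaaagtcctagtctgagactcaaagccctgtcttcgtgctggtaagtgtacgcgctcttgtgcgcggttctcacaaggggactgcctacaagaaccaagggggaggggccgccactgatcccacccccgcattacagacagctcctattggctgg
Cox7a1 (chr7:30183921-30184170, plus strand): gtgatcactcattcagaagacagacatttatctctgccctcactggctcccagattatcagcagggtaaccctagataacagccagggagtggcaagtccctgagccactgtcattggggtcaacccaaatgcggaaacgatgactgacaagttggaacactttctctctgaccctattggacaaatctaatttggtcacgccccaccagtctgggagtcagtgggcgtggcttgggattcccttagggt
Cyct (chr2:76360454-76360703, minus strand): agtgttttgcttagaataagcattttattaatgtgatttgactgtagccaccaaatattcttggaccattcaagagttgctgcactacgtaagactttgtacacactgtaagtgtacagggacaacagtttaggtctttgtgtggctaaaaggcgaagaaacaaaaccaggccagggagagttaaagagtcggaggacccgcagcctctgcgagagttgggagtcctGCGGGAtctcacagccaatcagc
Slc25a31 (chr3:40708621-40708870, plus strand): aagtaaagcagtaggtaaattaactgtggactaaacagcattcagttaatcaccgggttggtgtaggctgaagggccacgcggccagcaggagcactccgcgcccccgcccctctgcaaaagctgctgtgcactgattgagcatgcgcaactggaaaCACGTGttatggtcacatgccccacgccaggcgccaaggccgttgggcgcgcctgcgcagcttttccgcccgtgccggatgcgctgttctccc

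The upstream sequences of Cox7b2 and Cyct each held 1 E2F-type match and that of Slc25a31 held 1 E-box, while those of Cox7b, Cox6b2 and Cox7a1 held neither. Of 27018 promoters of this length, 1 per gene, 16.7% held the E2F-type motif and 5.93% the E-box. The E2F-type motif was found in 18 of the 65 broadly expressed subunits with an entry, or 27.7%, and the E-box in 6 of them, or 9.23%. Also searched were TCAAGGTCA, the element of the estrogen-related receptors, found in 1.54% of these subunits and 0.374% of all promoters, and the YY1 motif AAGATGGC, found in 1.54% and 1.58%. The broadly expressed subunits had a median of 14 CpG dinucleotides in this window against 5 over all promoters. Cox7b2 had 9, Cox6b2 had 8, Cyct had 6 and Cox7a1 had 4, while Slc25a31 had 18. Of their broadly expressed partners, Cox7b had 5, Cox6b1, Cox7a2 and Slc25a5 had 14 each and Cycs had 23. The sequence of Slc25a5 held 1 E2F-type match, and those of Cox6b1, Cox7a2 and Cycs held no match. These matches describe the sequence and show no binding. In all, 75 of the 92 genes had an entry, and Cox8c had none.

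The 77 broadly expressed subunits of complexes I to V differed little between groups. Per array, their median level was 5.99, 6.0, 6.01 and 6.14 in LIF_serum, 6.19, 6.13, 5.95 and 6.56 in 2i_LIF, 6.04, 6.23, 6.48 and 5.95 in 2iSB_LIF and 5.94, 5.92, 5.87 and 5.90 in EpiSC. All 4 EpiSC arrays lay below all LIF_serum arrays, and the highest value of each ground-state group came from its only array on slide 2. The median difference between EpiSC and LIF_serum over the 77 genes was -0.26 under the 75th percentile and 0.28 under the array median, so its direction flipped with the scaling. Relative to the median of all genes it was -0.33 under both. That last value depends on which genes are tested, and was -0.04 with no filter on dim probes.

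**Figure D1:**
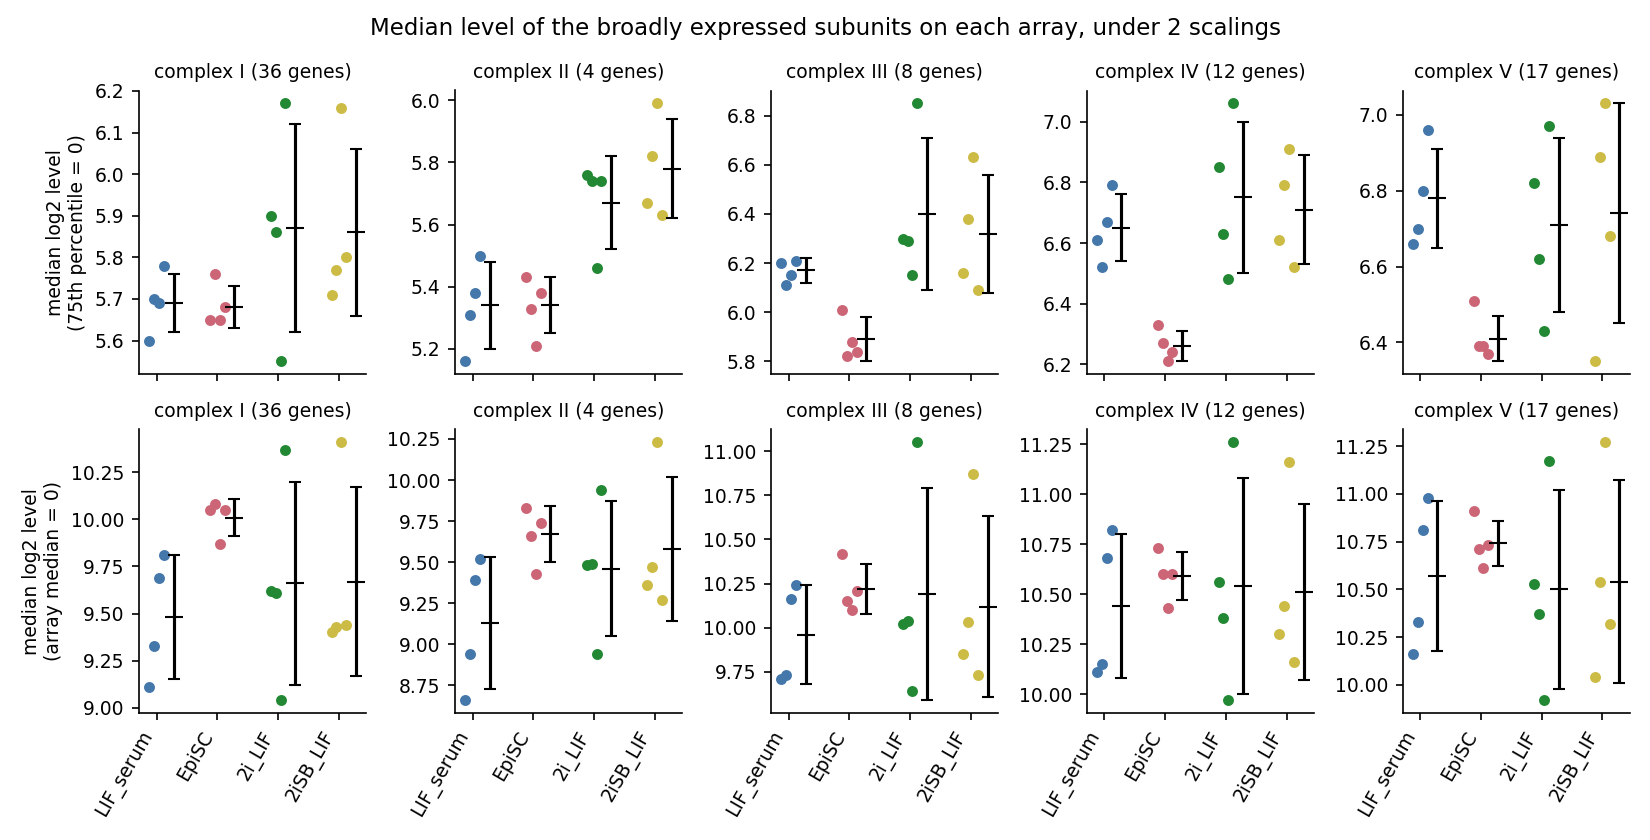
Median log2 level of the broadly expressed subunits of each complex on each array (points), with the mean and SD of the 4 arrays (black), less the array's 75th percentile (top) or median (bottom). Each panel has its own axis. In the top row the EpiSC arrays of complex IV lie between 6.21 and 6.33, below every other array, and in the bottom row they fall inside the range of the others.

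Complex by complex, the picture under the 75th percentile was similar. The median difference of EpiSC minus LIF_serum was -0.19 for complex I, -0.21 for complex II, -0.28 for complex III, -0.31 for the 12 broadly expressed subunits of complex IV and -0.22 for complex V, and each of these was above 0 under the array median (0.22 to 0.35). Against 2i_LIF the corresponding values were -0.28, -0.43, -0.36, -0.33 and -0.40. The members nearest the medians of complexes I, III and V in EpiSC minus LIF_serum did not pass the test. They were Ndufa13 in complex I (-0.19 ± 0.2, SE, adjusted p = 0.43, limma), Uqcr11 in complex III (-0.33 ± 0.16, adjusted p = 0.092) and Atp5o in complex V (-0.22 ± 0.13, adjusted p = 0.14). For complexes II and IV no nearest member is named. No complex was tested against another.

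Counted over all 92 genes, 31 were lower and 1 was higher in EpiSC than in LIF_serum at an adjusted p under 0.05 (limma, Benjamini-Hochberg over all genes tested), where 23.7% of all genes were lower and 29.6% higher. Against 2i_LIF 42 were lower and none higher, beside 25.9% and 30.3% of all genes. Against 2iSB_LIF 35 were lower and none higher, beside 25.3% and 29.5%. These comparisons share the EpiSC arrays and are not independent. With passage number as a covariate, 14 genes passed against 2iSB_LIF, 13 of them lower, beside 18.9% of all genes lower in that fit. By complex, the genes lower in EpiSC than in LIF_serum were 12 of 36 in complex I, 1 of 4 in complex II, 2 of 8 in complex III, 8 of 19 in complex IV and 6 of 17 in complex V, with 2 of 8 assembly factors.

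Most of these calls did not survive the other scaling. Lower under both were 3 genes against LIF_serum, 5 against 2i_LIF and 3 against 2iSB_LIF, beside 11.9%, 13% and 12.6% of all genes. With the array median used alone, 3, 3 and 1 genes were higher in EpiSC, beside 42.8%, 41.7% and 39.9% of all genes. The flip was smaller or absent with the slide in the fit. All EpiSC arrays lay on slide 2, so the slide term there rests on the other groups. In LIF_serum the slides coincide with the codes LS and LSFF, so slide and code cannot be told apart in that group. With the slide as a block, a choice made after seeing the data when joined to the array median, the median difference of the 77 subunits between EpiSC and 2i_LIF was -0.50 under the 75th percentile and -0.35 under the array median. It was -0.50 and -0.37 against 2iSB_LIF, and -0.43 and -0.15 against LIF_serum, so all had 1 direction. The slide block raised the genes called lower in EpiSC to 52, 65 and 62 under the 75th percentile against LIF_serum, 2i_LIF and 2iSB_LIF, beside 27%, 26.4% and 26.1% of all genes. Under the array median it gave 19, 33 and 27, beside 18%, 19.9% and 20.4%.

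Within slide 2, where EpiSC had 4 arrays, LIF_serum 2 and each ground-state group 1, the median difference was -0.29 against LIF_serum, -0.64 against 2i_LIF and -0.54 against 2iSB_LIF, and 0.02, -0.51 and -0.46 under the array median. Of the 92 genes 45 were lower than in LIF_serum under the 75th percentile, beside 31.6% of all genes. The lone ground-state arrays have no spread of their own, so only differences are given for them.

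**Figure D2:**
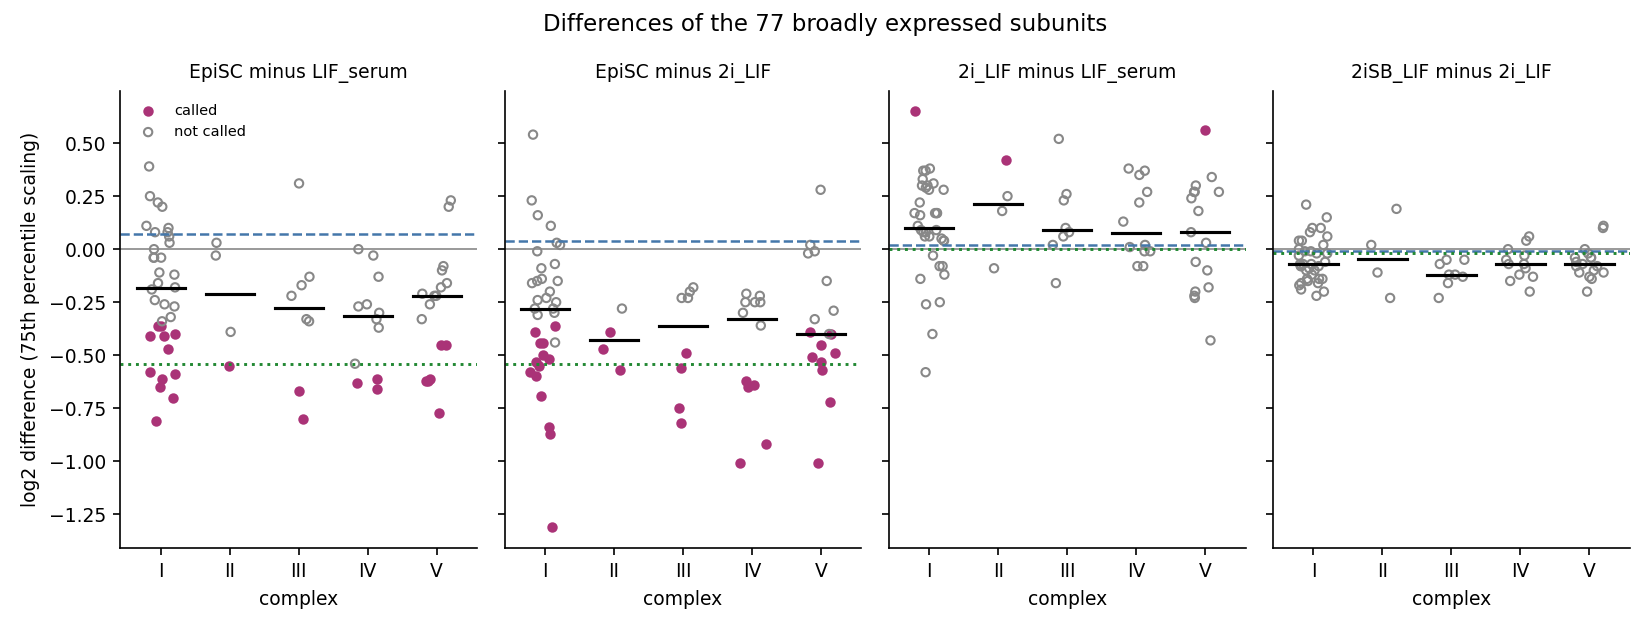
Log2 differences of the 77 broadly expressed subunits by complex in 4 comparisons, under the 75th percentile (points; filled where the adjusted p is under 0.05; black bars are complex medians). The dashed line is the median of all genes and the dotted line is where 0 would lie under the array median. In EpiSC minus LIF_serum the complex medians lie between -0.31 and -0.19, below the dashed line at 0.07.

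Single subunits spanned a narrow range, from -0.81 to 0.39 in EpiSC minus LIF_serum. Uqcrc1, a core subunit of complex III, was 3.70, 3.85, 3.90 and 3.84 in EpiSC against 4.77, 4.49, 4.72 and 4.51 in LIF_serum, without overlap, a difference of -0.80 ± 0.11 (SE, adjusted p = 3.7e-05, limma) that was -0.26 under the array median (adjusted p = 0.38). Of the 23 genes with several probes, Ndufv3, a complex I subunit, had probes that disagreed in this comparison, at -0.70 and 0.11. Ndufb4, an accessory subunit of complex I, was the broadly expressed subunit that was lower in EpiSC than in 2i_LIF under both scalings. Its level was 5.76, 5.86, 5.73 and 5.90 in EpiSC, 6.52, 6.57, 6.34 and 6.45 in LIF_serum, 7.0, 6.84, 7.03 and 7.62 in 2i_LIF and 6.69, 7.04, 7.30 and 6.91 in 2iSB_LIF. The EpiSC arrays lay below LIF_serum and the LIF_serum arrays below both ground-state groups, with no overlap. EpiSC minus 2i_LIF was -1.31 ± 0.17 (SE, adjusted p = 1.1e-05, limma) and -0.77 under the array median (adjusted p = 0.04). The related genes Ndufb4b and Ndufb4c had no probe of their own, and whether the Ndufb4 probe also reads them was not tested.

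In complex IV, Cox5a, a nuclear-encoded subunit, stood at 7.28, 7.16, 7.09 and 7.22 in EpiSC against 7.91, 7.75, 7.77 and 7.97 in LIF_serum and 7.91 to 8.57 in 2i_LIF. The EpiSC arrays lay below all others. EpiSC minus 2i_LIF was -1.01 ± 0.17 (SE, adjusted p = 0.00016, limma), and -0.48 with an adjusted p of 0.22 under the array median. In complex V, Atp5g1, 1 of 3 genes for the c subunit of the membrane ring, stood at 6.37 to 6.55 in EpiSC, 7.07 to 7.41 in LIF_serum and 7.23 to 7.84 in 2i_LIF. Its difference against 2i_LIF was -1.01 ± 0.19 (adjusted p = 0.00032) and -0.47 under the array median (adjusted p = 0.25).

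The ratio of Atp5g1 to Atp5g3, which encodes the same mature c subunit, does not depend on the scaling between arrays. The difference of the log2 ratio was -0.67 for EpiSC minus LIF_serum, -0.61 against 2i_LIF and -0.49 against 2iSB_LIF, with no overlap of the arrays in any of these (exact permutation p = 0.029 each, two-sided, the smallest that 4 against 4 arrays can give). Adjusted over the 78 ratio comparisons of 13 isoform pairs, the smallest p was 0.067, so none passed 0.05. Of the 78, 34 had groups that did not overlap, and no such share was computed for other gene pairs. Among the 34 were all EpiSC ratios of Cox7b2, Cox8c, Cyct and Slc25a31. These 4 genes passed the filter on dim probes only through the other groups.

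Complex II, succinate dehydrogenase, has 4 nuclear-encoded subunits and is also a part of the TCA cycle. Sdhc, a membrane anchor, was 4.16, 4.13, 3.97 and 4.22 in EpiSC against 4.67, 4.72, 4.56 and 4.74 in LIF_serum, without overlap, a difference of -0.55 ± 0.13 (SE, adjusted p = 0.002, limma) that was -0.02 under the array median. Sdha, the flavoprotein, was 5.39, 5.57, 5.74 and 5.40 in 2iSB_LIF against 5.01, 5.14, 5.0 and 5.19 in LIF_serum, again without overlap. That difference was 0.44 ± 0.13 (adjusted p = 0.015), with an adjusted p of 0.24 under the array median. Sdhd, the other anchor, was 0.42 ± 0.15 higher in 2i_LIF (adjusted p = 0.045) and 0.44 ± 0.15 higher in 2iSB_LIF (adjusted p = 0.033) than in LIF_serum, and neither passed under the array median. Sdhb, the iron-sulfur subunit, differed by -0.39 ± 0.2 in EpiSC minus LIF_serum (adjusted p = 0.11).

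Ndufaf4, an assembly factor of complex I, was the gene that was higher in EpiSC than in LIF_serum. Its level was 3.53, 3.56, 3.36 and 3.35 in EpiSC and 2.90, 3.06, 2.61 and 2.71 in LIF_serum, without overlap, a difference of 0.63 ± 0.21 (SE, adjusted p = 0.022, limma) and 1.17 under the array median (adjusted p = 0.0071). A slide block gave an adjusted p of 0.06, and it was 0.061, 0.051, 0.052 and 0.055 without LIF_serum array 3, LIF_serum array 4, EpiSC array 1 and EpiSC array 2.

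The 7 tissue isoforms, all in complex IV, had much larger differences. Of these, 5 were lower in EpiSC than in LIF_serum, 4 than in 2i_LIF and 4 than in 2iSB_LIF. Of all genes 23.7%, 25.9% and 25.3% were lower in these comparisons. Cox7b2 and Cox8c, counted in each, passed the filter on dim probes only through the other groups, so a lower level in EpiSC was close to given. The median differences of the 7 were -1.44, -1.67 and -1.37 under the 75th percentile and -0.90, -1.13 and -0.85 under the array median. Each of these genes has 1 probe.

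Cox7b2, a copy of Cox7b best known from testis, was well above background on 0 of the 4 EpiSC arrays. Its level was -7.43, -8.09, -7.42 and -7.93 in EpiSC, -3.12, -2.12, -1.73 and -1.81 in LIF_serum, 2.22, 1.79, -1.81 and 0.68 in 2i_LIF and -0.94, 1.56, 2.29 and 0.50 in 2iSB_LIF. EpiSC lay far below all other arrays, and 2i_LIF array 3 was the only ground-state array inside the LIF_serum range. The background floor of an EpiSC array was the lowest signal well above background, or the probe's own where higher. Against this floor Cox7b2 was at least 12.6-fold lower in EpiSC than in LIF_serum. It was at least 94.9-fold lower than in 2i_LIF and at least 104-fold lower than in 2iSB_LIF. No p-value is given for these, as the probe passed the filter on dim probes only through the other groups. Measured means were -7.72 in EpiSC, -2.19 in LIF_serum, 0.72 in 2i_LIF and 0.85 in 2iSB_LIF.

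Cox7b2 was also higher in both ground-state groups than in LIF_serum, by 2.91 ± 0.77 in 2i_LIF (SE, adjusted p = 0.011) and 3.04 ± 0.77 in 2iSB_LIF (adjusted p = 0.0078), and it was the only one of the 92 genes higher in either under both scalings, beside 7.2% and 8.53% of all genes. Under the array median used alone the shares of all genes were 7.44% and 8.77%. Within slide 1 the differences were 3.35 and 2.99, with adjusted p-values of 0.12 and 0.16 on 2 LIF_serum arrays. With LIF_serum arrays 3 and 4 alone the adjusted p-values were 0.067 and 0.054, and with passage number as a covariate that of 2iSB_LIF was 0.12. Its ratio to Cox7b within an array was 2.53 and 2.61 higher (log2) in these groups than in LIF_serum, each without overlap (exact permutation p = 0.029, adjusted p = 0.067).

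Cox8c, the testis copy of Cox8a, was likewise well above background on 0 of the 4 EpiSC arrays, but it did not differ detectably between the other groups. Its level was -7.52, -7.82, -6.22 and -7.96 in EpiSC, -2.02, -2.09, -0.71 and -0.30 in LIF_serum, -0.53, -1.89, -3.30 and -1.88 in 2i_LIF and -2.42, -1.46, -1.13 and -2.07 in 2iSB_LIF. The last 3 groups overlapped one another. It was at least 23.8-fold lower in EpiSC than in LIF_serum, at least 15.5-fold lower than in 2i_LIF and at least 16.9-fold lower than in 2iSB_LIF. No p-value is given for these, for the same reason as for Cox7b2.

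Cox6b2, the testis copy of Cox6b1, was measured above background in every group. It stood at 1.64, 1.56, 1.82 and 1.92 in EpiSC, 2.48, 2.12, 3.30 and 3.17 in LIF_serum, 3.15, 3.16, 3.30 and 4.01 in 2i_LIF and 3.36, 2.88, 3.14 and 3.06 in 2iSB_LIF. The EpiSC arrays lay below all others. The difference was -1.67 ± 0.26 against 2i_LIF (SE, adjusted p = 5.5e-05) and -1.13 under the array median (adjusted p = 0.019). It was -1.03 ± 0.26 against LIF_serum (adjusted p = 0.0035) and -1.37 ± 0.26 against 2iSB_LIF (adjusted p = 0.00033), and these had adjusted p-values of 0.28 and 0.068 under the array median.

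**Figure D3:**
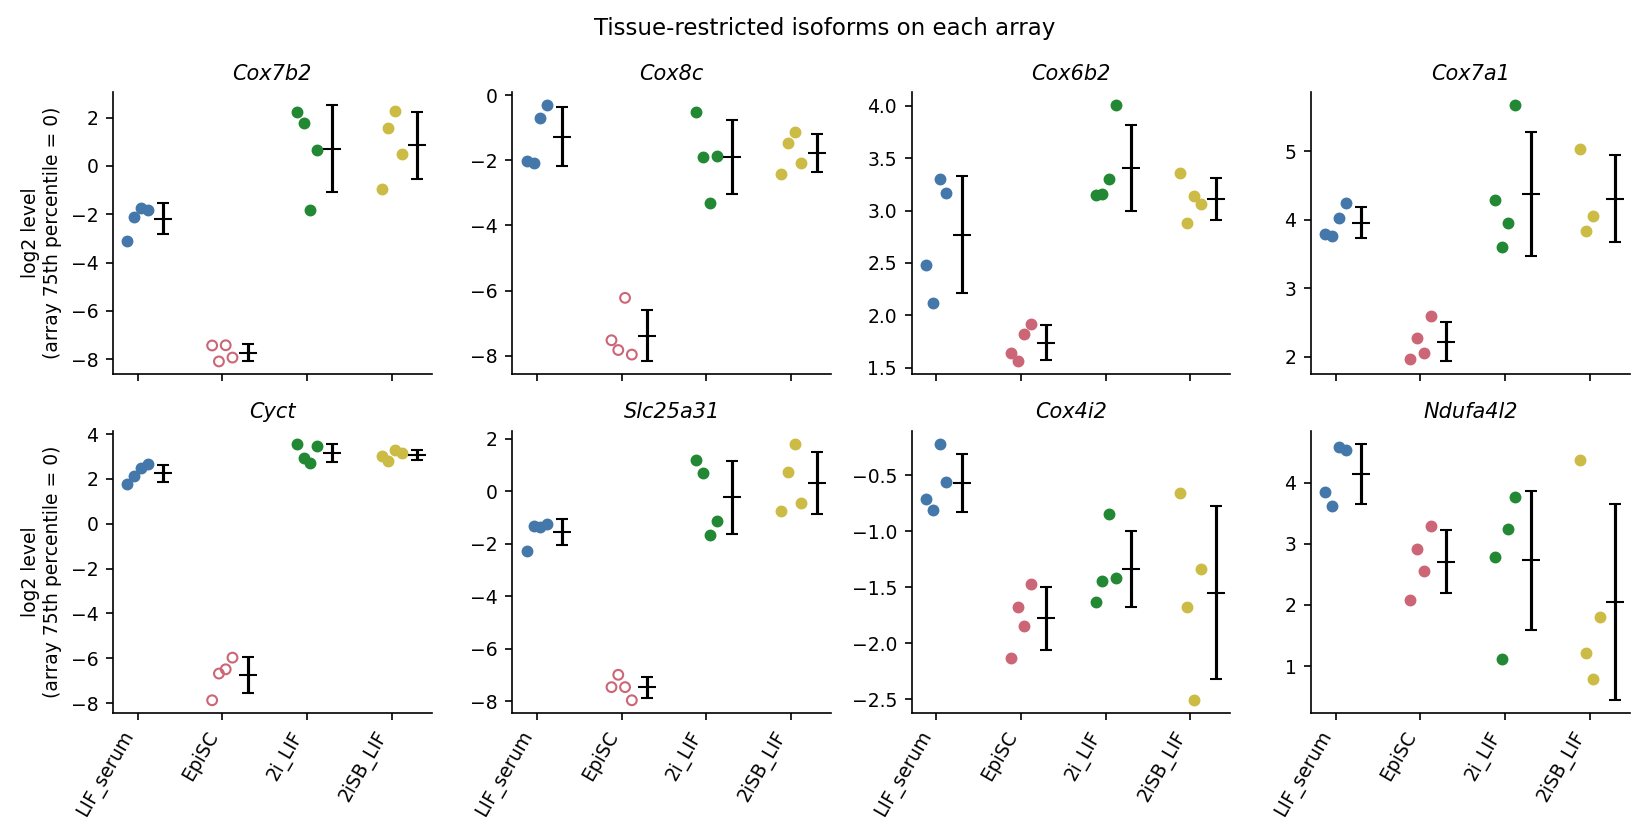
Log2 level of 6 restricted complex IV isoforms, of Cyct and of Slc25a31 on each array (points), with the mean and SD (black). Open points mark groups in which fewer than 4 arrays were well above background. Each panel has its own axis. The EpiSC arrays of Cox7b2, Cox8c, Cyct and Slc25a31 lie between -8.09 and -5.97, below every other array.

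Cox7a1, the isoform of heart and skeletal muscle, was also lowest in EpiSC. It was 1.96, 2.27, 2.05 and 2.60 in EpiSC, 3.79, 3.76, 4.03 and 4.24 in LIF_serum, 4.29, 3.60, 3.96 and 5.68 in 2i_LIF and 5.03, 3.84 and 4.06 in 2iSB_LIF, where the spot on array 4 was an outlier and was left out of the fit. The EpiSC arrays lay below all others. The differences were -1.74 ± 0.38 against LIF_serum (SE, adjusted p = 0.0016), -2.16 ± 0.38 against 2i_LIF (adjusted p = 0.00025) and -2.09 ± 0.41 against 2iSB_LIF (adjusted p = 0.00063), and all passed under the array median (adjusted p = 0.04, 0.008 and 0.013). Of 12 striated muscle markers tested, 7 were lower and 1 was higher in EpiSC than in LIF_serum, beside 23.7% and 29.6% of all genes. Under both scalings 5 were lower and 1 higher, beside 11.9% and 29.6%. The summed level of the 12 markers was 38.5 to 54.9 in EpiSC, 10.5 to 22.4 in LIF_serum, 1.88 to 3.35 in 2i_LIF and 1.35 to 2.46 in 2iSB_LIF. The EpiSC sum came mostly from Actc1 and Acta1, with mean log2 levels of 5.16 and 3.11. Means of the other markers in EpiSC lay between -6.11 and -1.72. Their part in the result was not tested.

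Of the other 3 tissue isoforms, 2 gave calls that were lost in several settings. Cox4i2, the isoform of Cox4i1 found mainly in lung, was -0.71, -0.81, -0.22 and -0.56 in LIF_serum, -1.63, -1.45, -0.85 and -1.42 in 2i_LIF, -0.66, -1.68, -2.51 and -1.34 in 2iSB_LIF and -2.13, -1.68, -1.85 and -1.47 in EpiSC. LIF_serum was above EpiSC and 2i_LIF without overlap, and 2iSB_LIF overlapped it through array 1. EpiSC minus LIF_serum was -1.21 ± 0.31 (SE, adjusted p = 0.0043, limma) with an adjusted p of 0.075 under the array median, and 2iSB_LIF minus LIF_serum was -0.97 ± 0.31 (adjusted p = 0.025, and 0.035 under the array median).

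Ndufa4l2, a relative of the complex IV subunit Ndufa4 known as a hypoxia-induced gene, was 3.85, 3.62, 4.59 and 4.53 in LIF_serum, 2.78, 1.12, 3.25 and 3.76 in 2i_LIF, 4.38, 1.22, 0.79 and 1.81 in 2iSB_LIF and 2.08, 2.92, 2.56 and 3.29 in EpiSC. The spread within the ground-state groups was wide, and 2iSB_LIF array 1 lay inside the LIF_serum range. It was lower in 2iSB_LIF than in LIF_serum under both scalings (-2.10 ± 0.68, SE, adjusted p = 0.027 and 0.034, limma). Both this call and that of Cox4i2 in the same comparison were lost without LIF_serum array 3, LIF_serum array 4, 2iSB_LIF array 2 or 2iSB_LIF array 3, and that of Ndufa4l2 also without 2iSB_LIF array 4, where Ndufa4l2 ranged from -2.02 to -1.68 and Cox4i2 from -0.97 to -0.65. Cox6a2, the muscle copy of Cox6a1, ranged from -3.88 to -0.15 over all arrays and passed in no comparison.

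**Figure D4:**
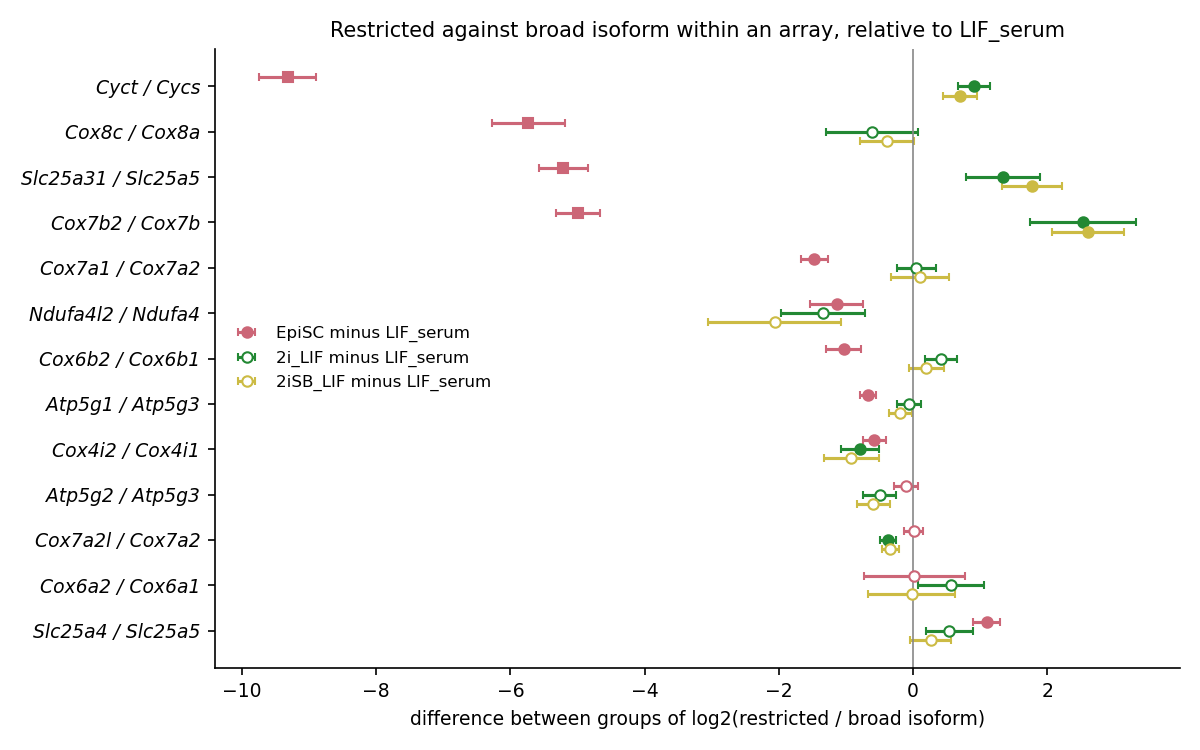
Difference from LIF_serum in the log2 ratio of a restricted to a broadly expressed gene within an array, for 13 pairs (points, with the SE as bars; filled where the arrays of the compared groups do not overlap). Squares mark EpiSC points of Cox7b2, Cox8c, Slc25a31 and Cyct, whose probes were well above background on at most 1 of 4 EpiSC arrays, so that the size of these differences was not measured. Cox7b2 over Cox7b lies at 2.53 and 2.61 in the ground-state groups, and Cox7a1 over Cox7a2 at -1.47 and Cox6b2 over Cox6b1 at -1.03 in EpiSC.

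Beyond the complexes, 2 restricted genes of the same pathway were also lowest in EpiSC. Both passed the filter on dim probes only through the other groups. Cyct, the testis cytochrome c, was -7.87, -6.68, -6.49 and -5.97 in EpiSC, where 1 of 4 arrays was well above background, 1.79, 2.14, 2.47 and 2.66 in LIF_serum, 3.54, 2.91, 2.71 and 3.46 in 2i_LIF and 3.00, 2.80, 3.29 and 3.16 in 2iSB_LIF. EpiSC lay below all others and LIF_serum below both ground-state groups. The same floor as for Cox7b2 was used, with the 1 array at its own value. By it EpiSC was at least 275-fold lower than LIF_serum, at least 511-fold lower than 2i_LIF and at least 478-fold lower than 2iSB_LIF. As the probe passed only through the other groups, no p-value is given for these. The difference of 2i_LIF minus LIF_serum was 0.89 ± 0.33 (SE) and did not pass (adjusted p = 0.057, limma). Cycs, the general cytochrome c, was 6.40 to 6.52 in EpiSC and 6.06 to 6.27 in LIF_serum.

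Slc25a31, an ADP/ATP carrier best known from testis, was -7.47, -7.0, -7.47 and -7.97 in EpiSC, where no array was well above background, -2.30, -1.33, -1.35 and -1.26 in LIF_serum, 1.18, 0.70, -1.68 and -1.13 in 2i_LIF and -0.76, 0.72, 1.81 and -0.47 in 2iSB_LIF. EpiSC was at least 19.5-fold lower than LIF_serum, at least 49-fold lower than 2i_LIF and at least 72.3-fold lower than 2iSB_LIF, again without a p-value. Slc25a31 was 1.89 ± 0.62 higher in 2iSB_LIF than in LIF_serum (SE, adjusted p = 0.03, limma), a call lost under the array median.

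Most markers of germ cells and testis were also lower in EpiSC. Of 11 tested, 9 were lower in EpiSC than in LIF_serum, 11 than in 2i_LIF and 9 than in 2iSB_LIF, and none was higher in EpiSC. Of all genes 23.7%, 25.9% and 25.3% were lower. Ddx4, Dazl and Mael were well above background on 0 EpiSC arrays, Ldhc on 1, Sycp3 on 2, and Dmc1, Prm2 and Tnp1 on 3. These passed the filter on dim probes only through the other groups, so a lower level in EpiSC was in part given. The summed level of the 11 markers was 0.496 to 0.779 in EpiSC, 24.2 to 37.3 in LIF_serum, 18.8 to 33.8 in 2i_LIF and 14.8 to 28.5 in 2iSB_LIF. Single markers went both ways between LIF_serum and the ground state. In 2i_LIF 2 (Dazl and Tnp1) were higher and 3 lower than in LIF_serum, beside 14% and 16.2% of all genes. In 2iSB_LIF 1 (Dazl) was higher and 3 lower, beside 15.7% and 18.1%. Their part in the result was not tested.

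Between LIF_serum and the ground-state groups few of the 92 genes differed. In 2i_LIF 5 were higher and none lower than in LIF_serum, beside 14% and 16.2% of all genes, and in 2iSB_LIF 6 were higher and 2 lower, beside 15.7% and 18.1%. The 5 were Cox7b2, Ndufb4, Sdhd, Ndufaf1 and Atp5k, and the same 5 with Sdha were higher in 2iSB_LIF. Ndufaf1, an assembly factor of complex I, was 3.25, 3.33, 3.46 and 3.49 in 2iSB_LIF against 2.70, 2.78, 2.62 and 2.80 in LIF_serum, without overlap (0.66 ± 0.12, SE, adjusted p = 0.0011, limma, and 0.064 under the array median). Atp5k, the e subunit of ATP synthase, was 0.56 ± 0.18 higher in 2i_LIF (adjusted p = 0.027, and 0.27 under the array median).

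These counts depended on single arrays. For 2i_LIF 3 genes were higher and 0 lower without 2i_LIF array 2, beside 10.4% and 12.9% of all genes. Without 2i_LIF array 3, 7 were higher and 1 lower, beside 14% and 14.4%. For 2iSB_LIF 4 genes passed without LIF_serum array 3, LIF_serum array 4 or 2iSB_LIF array 2. In these fits 12.5% to 12.7% of all genes were higher and 14.3% to 14.8% lower. Without 2iSB_LIF array 1, 9 were higher and 5 lower, beside 16.9% and 18.4%. With the slide as a block, 21 were higher and 1 lower in 2i_LIF, beside 17.9% and 17.5% of all genes, and 16 higher and 3 lower in 2iSB_LIF, beside 19.2% and 20%. Within slide 1 each comparison had 1 gene higher, beside 5.06% and 5.59% of all genes.

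Between 2iSB_LIF and 2i_LIF, which differ by SB431542, 0 of the 92 genes had an adjusted p under 0.05 (limma) and 0 an unadjusted p under 0.05, where 868 of all genes (5.59%) had one. Of all genes 0.0129% were higher and 0.0709% lower, and 0.00644% were higher under the array median. The differences of the 77 broadly expressed subunits lay between -0.23 and 0.21, with a median of -0.07. For Cox7b2 the difference was 0.13 ± 0.77 (SE).

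Other genes of mitochondrial energy metabolism are read here against the 23.7% of all genes that were lower and the 29.6% that were higher in EpiSC than in LIF_serum. Of 38 assembly factors whose symbols lie outside the rule, 11 were lower and 3 higher in EpiSC than in LIF_serum, and none of the 11 was lower under both scalings. Of 21 genes of electron carriers and coenzyme Q synthesis 6 were higher and 6 lower, of 18 TCA cycle genes 2 and 3, of 25 biogenesis regulators and mitochondrial DNA factors 7 and 4, and of 13 carriers, inhibitors and uncouplers 1 and 4. The median difference of these lists lay between -0.17 and 0.00, against 0.07 for all genes. No gene of these lists passed between 2iSB_LIF and 2i_LIF. No probe was matched to the 13 mitochondrially encoded subunits, which were not analysed here.

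The 25 regulators and mitochondrial DNA factors held 7 genes that were higher and 4 that were lower in EpiSC than in LIF_serum. Esrrb, an estrogen-related receptor of the naive state that also regulates respiratory genes, differed by -8.47 ± 0.19 in EpiSC minus LIF_serum (SE, adjusted p = 1.1e-13, limma). Ppargc1a, a coactivator of mitochondrial biogenesis, was well above background on all 4 EpiSC arrays, at -4.81, -5.29, -4.37 and -4.73. It was so on no array of the other groups. It thus passed the filter on dim probes only through EpiSC, so a higher level there was close to given. It was at least 1.01-fold higher in EpiSC than in LIF_serum, with measured means of -4.80 and -6.96, so the size of the difference was not measured. Esrrg, another estrogen-related receptor, was well above background on 4 EpiSC and 0 LIF_serum arrays, and no fold could be given. Nrf1, a transcription factor for respiratory genes, was 1.44 ± 0.28 higher in EpiSC (adjusted p = 5e-04), and Hif1a, the oxygen-regulated factor, 1.06 ± 0.31 higher (adjusted p = 0.0091). Ppargc1b, a related coactivator, was 1.2 ± 0.29 higher in 2i_LIF (adjusted p = 0.0065) and 1.38 ± 0.29 higher in 2iSB_LIF (adjusted p = 0.0023) than in LIF_serum. Myc, a growth regulator, differed by -3.04 ± 1 and -3.44 ± 1 in the same comparisons (adjusted p = 0.032 and 0.016), with 3 of 4 ground-state arrays of each group well above background. Zbtb7a, a transcription factor, was higher than in LIF_serum in EpiSC by 2.40 ± 0.23 (adjusted p = 6.4e-07), in 2i_LIF by 1.17 ± 0.23 (adjusted p = 0.0015) and in 2iSB_LIF by 1.32 ± 0.23 (adjusted p = 0.00051). Coq8a, needed for coenzyme Q synthesis, was lowest in EpiSC, at -3.93 ± 0.25 against LIF_serum (adjusted p = 1.1e-08), and also lower than there in 2i_LIF (-1.31 ± 0.25, adjusted p = 0.0013) and 2iSB_LIF (-1.56 ± 0.25, adjusted p = 0.00031).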

How the data were processed

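Total RNA was labelled with Cy3 and hybridised to Agilent arrays, 1 line per array, per the labels. The deposited scanner files hold spot intensity values, and the processed signal used here was background-corrected by the authors' Agilent Feature Extraction 10.7.1.1, per the file headers. The authors' deposited table holds log2 values; limma is also named in the submitters' processing notes, with its use not given in the sources used here.

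Probes were named through the RefSeq accession (27656 of 55681 probes). Control spots and outlier flags were left out, and where a gene had several probes the brightest on average was used. The 75th percentile of each array was subtracted from its log2 signals, with the array median as the second scaling. Genes with a probe above background throughout some group were fitted with limma 3.58.1 in R 4.3.3 as 4 group means over 16 arrays, with Benjamini-Hochberg adjustment over 15518 genes and a threshold of 0.05. The fit was tested on simulated data. Ratios of isoform pairs used exact two-sided permutation tests. Signal over background limits the precision: from 51.6% to 63.9% of an array's probes passed the scanner's background test, and none was saturated.

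By rule, genes named were those called the same way under both scalings, the isoform pairs, Sdha to Sdhd, members measured throughout one group and in no array of another, the member nearest each complex's median, and up to 3 called genes per direction and comparison of the other lists. Cox5a, Uqcrc1, Ndufv3, Ndufaf1, Atp5k, Nrf1 and Hif1a were chosen after their values were seen. The members and lists were chosen with earlier results of these data known. Promoters are RefSeq sequences of GRCm38.p6; the array design used mm9, so no probe coordinates are given.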

Additional observations from a re-analysis of the deposited data

Results flagged for a closer look

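In 95 groups of 4 arrays examined, 5 held 1 array far from the other 3 (by Dixon's test of the gap over the range), and chance marks about 1 in 20 groups. Sdhb was 7.26 on 2i_LIF array 4, against 6.27 to 6.39 on the others. Slc25a31 was -2.30 on LIF_serum array 1, against -1.35 to -1.26. The median of complex II was 5.46 on 2i_LIF array 3, against 5.74 to 5.76. The median of complex V was 6.51 on EpiSC array 1, against 6.37 to 6.39. The median of the 77 broadly expressed subunits was 6.14 on LIF_serum array 4, against 5.99 to 6.01.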

How the results depend on the processing

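Of 622 recomputed values of 28 differences in 12 named genes, 587 kept their direction and side of the threshold. Another 35 lost the call and 0 reversed. These differences were chosen because they were called under both scalings in these data. Outside Cyct and Slc25a31, called differences of at least 2-fold were also taken. A high share kept is therefore partly built in. Uqcrc1, Sdhc, Sdha, Ndufaf1 and Atp5k, whose calls were lost under the array median, were not included. The share thus does not describe all named genes. Centring on the array median turned the median of the broadly expressed subunits to 0.28, 0.21 and 0.23 in EpiSC against LIF_serum, 2i_LIF and 2iSB_LIF, and within slide 2 to 0.02 against LIF_serum. Counts of genes past the threshold were 32 for EpiSC against LIF_serum, 5 for 2i_LIF and 8 for 2iSB_LIF against LIF_serum, 0 for 2iSB_LIF against 2i_LIF, and 42 and 35 for EpiSC against 2i_LIF and 2iSB_LIF.

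With the array median these became 6, 1, 3, 8 and 4 (all but 2iSB_LIF against 2i_LIF, in that order), while a slide block gave 52, 22, 19, 65 and 62. With the array median 7.44% of all genes were higher and 11.7% lower in 2i_LIF than in LIF_serum, and 8.77% and 13% in 2iSB_LIF. For EpiSC and for the slide block the shares are given with the counts above. For 2i_LIF and 2iSB_LIF against LIF_serum, in that order, they were 24 and 23 in the authors' table, 1 and 1 within slide 1, 36 and 30 within slide 2, 3 and 3 with passage, 3 and 4 with LIF_serum arrays 1 and 2, 10 and 14 without 2i_LIF array 4 and 2iSB_LIF array 3, 26 and 22 with the array median and slide block, and 45 and 38 with the array median within slide 2. For 2i_LIF alone they were 8 with normexp and 9 with LIF_serum arrays 3 and 4; for 2iSB_LIF alone, 13 with the median of expressed probes. Within slide 2, where these groups have 1 array each and no spread of their own, 2iSB_LIF against 2i_LIF had 7 (4 under the array median), and EpiSC had 72 against 2i_LIF and 66 against 2iSB_LIF; passage gave 14 for the latter. Isoform ratios without overlap numbered 34 of 78, 13 of 39 within slide 1 and 11 of 13 within slide 2. On slide 2 only EpiSC (4 arrays) and LIF_serum (2 arrays) could be compared. The causes were not tested.

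Leaving out 1 array gave 26 to 30, 3 to 8, 4 to 14, 0 to 0, 34 to 45 and 24 to 36 genes in the order above, and 34 to 42 ratios. In these fits 20.9% to 22.5% of all genes were lower in EpiSC than in LIF_serum. Against 2i_LIF 22.7% to 25.8% were lower, and against 2iSB_LIF 22.4% to 25.6%. In 2i_LIF against LIF_serum 10.4% to 14% of all genes were higher and 12.9% to 17.1% lower. In 2iSB_LIF against LIF_serum these shares were 12.1% to 16.9% and 14.3% to 18.4%. The replicate block gave 29, 4, 6, 0, 36 and 30. With it 22.9%, 25% and 24.5% of all genes were lower in EpiSC than in LIF_serum, 2i_LIF and 2iSB_LIF. In 2i_LIF against LIF_serum 12.4% were higher and 15.1% lower with this block, and 14.2% and 17% in 2iSB_LIF. Same-numbered arrays did not deviate together (correlations of -0.6 to 0.4, median -0.04, over 24 pairs), so the numbers show no pairing. Normexp on the mean spot signal was not run, as the median spot signal was used in its place. The normexp, joint median and slide, and left-out pair settings were chosen after seeing the data. Dim probes limit Cox7b2, Cox8c, Cyct and Slc25a31 in EpiSC to bounds or near-background values.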
